A study of Mus musculus with 24 samples.

Results

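The passenger strands of the let-7 hairpins are the 3p arms that are cut out beside the guide strands let-7a to let-7f. The members were the 8 mouse strands mmu-let-7a-1-3p, mmu-let-7a-2-3p, mmu-let-7b-3p, mmu-let-7c-1-3p, mmu-let-7d-3p, mmu-let-7e-3p, mmu-let-7f-1-3p and mmu-let-7f-2-3p, picked by name out of 1221 mature miRNA names and written here without the species prefix. For each of them the counts of 8 isoform classes (canonical sequence, trimmed, extended and altered forms) were added up. The cells were 3T9 mouse fibroblasts, an immortalised line from embryos. Every labelled group had received 300 µM 4-thiouridine (4SU), a uridine analogue that is built into new RNA, for 3 h, and was then chased in 1 mM uridine for 0, 2, 4, 6, 8, 10 or 12 h. Thiolated RNA was coupled to biotin and captured on streptavidin, and each time point had 3 libraries, numbered as experiments 1 to 3 and called independent biological replicates by the study. The controls, 1 library each, were total RNA of pulsed cells, total RNA of unlabelled cells, and a negative extraction in which unlabelled cells went through the capture.

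As background, let-7 miRNAs are made from hairpin precursors that Drosha and Dicer cut into a short duplex. The 5p strand is kept in Argonaute as the guide, which represses growth and cell cycle genes and is plentiful in differentiated cells, while the 3p strand is mostly discarded and degraded. The 3′ end of the precursor is also the 3′ end of the 3p strand. In human cells, terminal uridylyl transferases add uridines to that end in most let-7 precursors, and those of let-7a-2, let-7c and let-7e form a separate group with a different end after Drosha cutting. 4SU can enter a strand only at its uridines.

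The mature sequences of the 8 members are shown because their 3′ ends and their uridines bear on the forms described further on. They are RefSeq sequences on the mouse build GRCm38.p6, printed 5′ to 3′ with the seed, bases 2 to 8, in capitals.
let-7a-1-3p: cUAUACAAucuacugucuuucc
let-7b-3p: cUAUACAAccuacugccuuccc
let-7f-1-3p: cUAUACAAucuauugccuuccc
let-7f-2-3p: cUAUACAGucuacugucuuuc
let-7d-3p: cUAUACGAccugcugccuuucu
let-7e-3p: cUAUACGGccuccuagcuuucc
let-7c-1-3p: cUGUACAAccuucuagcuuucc
let-7a-2-3p: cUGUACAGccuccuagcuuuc
The seed UAUACAA was shared by 3 members, let-7a-1-3p, let-7b-3p and let-7f-1-3p, and each of the other 5 had a seed of its own. The closest pair was let-7f-2-3p and let-7a-1-3p, which matched at 20 of 21 positions and differed by A8G, counted from the 5′ end with the let-7a-1-3p base first. Every member carried between 6 uridines (let-7b-3p) and 9 uridines (let-7a-1-3p and let-7f-2-3p). The mature sequence of let-7a-1-3p is identical to that of let-7c-2-3p, the passenger of another hairpin on chromosome 15, so the source of those reads cannot be told apart.

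The hairpins lie at 6 chromosomal places, by the GENCODE annotation of the same build. The strands of let-7a-1 (chr13:48538188-48538209), let-7f-1 (chr13:48537833-48537854) and let-7d (chr13:48536024-48536045) lie in exonic sequence of the long noncoding RNA 6720427I07Rik on the minus strand. let-7b-3p (chr15:85707379-85707400) is in an exon of the noncoding transcript Lncppara. The others are intronic: let-7a-2-3p (chr9:41536777-41536797) in 3110039I08Rik, let-7c-1-3p (chr16:77599717-77599738) in Mir99ahg, let-7e-3p (chr17:17830411-17830432) in the protein-coding gene Spaca6, and let-7f-2-3p (chrX:151912403-151912423) in Huwe1, a ubiquitin ligase gene.

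Summed miRNA counts were 1133048 to 7886484 in the labelled libraries, 4525638 in total RNA of pulsed cells, 6412428 in total RNA of unlabelled cells and 283922 in the negative extraction. CPM stands for counts scaled to a common total of all miRNA counts (counts per 1e6). Finding 3 counts equals 0.380 to 2.65 CPM in a labelled library and 10.6 CPM in the negative extraction. A code in the table's second header line, which the labels do not explain, was the same for experiment 1 and the negative extraction, differed for experiments 2 and 3, and was a further one for both total RNA libraries. Experiment and code therefore cannot be told apart, and labelled RNA never shared a code with total RNA. A list of 5 miRNAs typical of fibroblasts summed to 109200 to 218900 CPM in labelled RNA, against 185 to 734 CPM for 5 blood miRNAs, of which miR-451a, miR-142a-3p and miR-223-3p averaged under 1 CPM. The 6 epithelial miRNAs summed to 201 to 1151 CPM in labelled RNA, with miR-200a-3p, miR-200b-3p, miR-200c-3p and miR-141-3p under 1 CPM on average. Most of the epithelial sum came from miR-205-5p and miR-203-3p, and most of the blood sum from miR-486a-5p and miR-150-5p. The epithelial sum was 33.1 CPM in total RNA of pulsed cells, 186 CPM in that of unlabelled cells and 740 CPM in the negative extraction.

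let-7d-3p made up nearly all of the passenger reads. Over the 21 labelled libraries its lowest, median and highest levels were 1687, 2532 and 4097 CPM, and it held 88.6 to 97.8% of the members' summed counts (median 94.6%). The other 7 strands together reached 66.7 to 249.6 CPM. let-7e-3p ranged from 33.7 to 87.8 CPM with a median of 48.2 CPM, and let-7b-3p from 16.9 to 81.9 CPM with a median of 44.7 CPM. These ranges overlapped. let-7a-1-3p had a median of 22.2 CPM, between 5.10 and 38.4 CPM. let-7f-1-3p followed at a median of 7.06 CPM, between 2.30 and 19.8 CPM. The 3 rarest members were let-7f-2-3p, let-7c-1-3p and let-7a-2-3p, with medians of 4.48, 3.78 and 2.74 CPM and overlapping ranges. At 3 or fewer counts stood 6 libraries for let-7a-2-3p, 5 for let-7f-2-3p, 2 for let-7c-1-3p and 1 for let-7f-1-3p, so these values are close to the counting limit. All 8 members passed the filter on low counts.

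**Figure D1:**
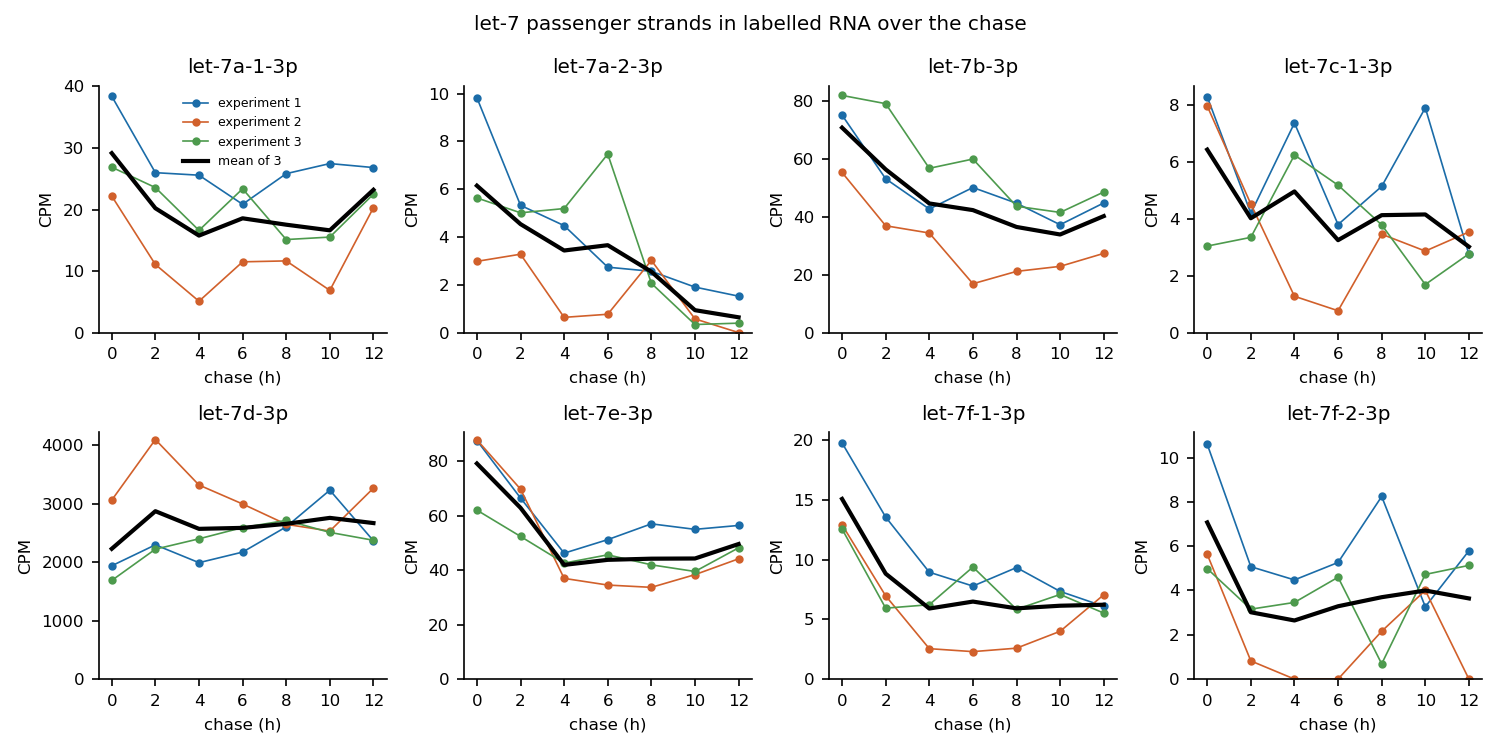
Level of each let-7 passenger strand (CPM, vertical axes starting at 0) in labelled RNA against chase time (h); coloured points are the 3 experiments and the black line is their mean. let-7e-3p, let-7f-1-3p, let-7b-3p and let-7a-1-3p were highest at 0 h in 3 of 3 experiments, let-7a-2-3p was at or near 0 by 12 h, and let-7d-3p was never highest at 0 h. The share of all miRNAs highest at 0 h was not counted.

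The chase was read as the change of each strand relative to the rest of the labelled miRNA pool, since counts carry no absolute amount. In libraries from many cells, less of a strand in each cell and fewer cells that hold it cannot be told apart. The slope, in log2 units per hour, was fitted over all 7 time points with edgeR's quasi-likelihood test for all 414 miRNAs that passed the filter, and called at a Benjamini-Hochberg adjusted p under 0.05. Without a term for the experiment, 51 of 414 miRNAs (12.3%) were called and 1 of the 8 members, let-7a-2-3p. With the experiment as a replicate block, 132 of 414 (31.9%) were called and 4 members: let-7a-2-3p, let-7b-3p and let-7f-1-3p fell and let-7d-3p rose. The median slope of the members was −0.041 per hour without the block, against −0.0037 over all miRNAs tested.

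let-7a-2-3p had the steepest slope of the 8. It stood at 9.83, 2.98 and 5.64 CPM at 0 h in experiments 1, 2 and 3. At 2 h it had 5.33, 3.28 and 5.01 CPM, and at 4 h 4.48, 0.637 and 5.19 CPM. At 6 h the values spread widely, with 2.74, 0.767 and 7.47 CPM, the last of them above the 0 h value of experiment 3. It then had 2.56, 3.02 and 2.06 CPM at 8 h, and 1.9, 0.572 and 0.338 CPM at 10 h. At 12 h it was at 1.52, 0 and 0.395 CPM, below each 0 h library. Its slope was −0.20 per hour (SE 0.047, adjusted p = 0.00682 by edgeR; 0.000312 with the replicate block). The call was lost without experiment 1 (adjusted p = 0.163), without experiment 3 (0.064), without the 0 h libraries (0.0503) and without the 12 h libraries (0.0594), at slopes between −0.175 and −0.225 per hour. Summed over experiments, 6 of 6947785 counts were let-7a-2-3p at 12 h and 111 of 15366003 at 0 h, a ratio of 0.12 (95% exact interval 0.043 to 0.269, counting error only).

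**Figure D2:**
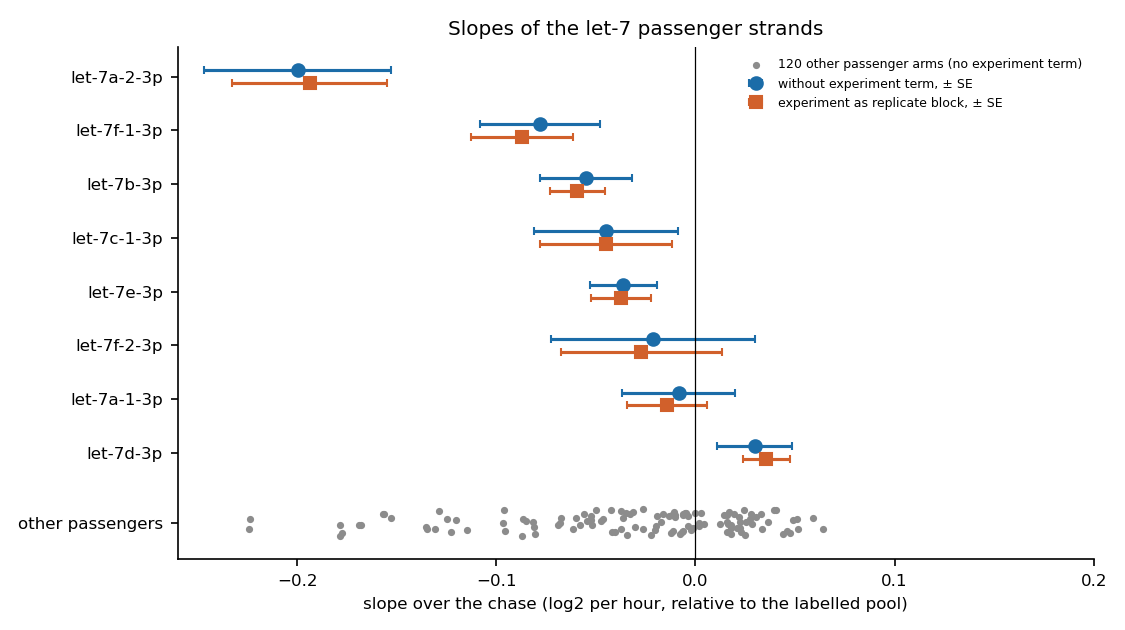
Slope over the chase (log2 per hour, horizontal axis) of each let-7 passenger strand, as edgeR estimate ± SE without an experiment term (circles) and with the experiment as replicate block (squares); grey points are 120 other passenger arms without an experiment term. let-7a-2-3p lies farthest left of the 8 at −0.20, and let-7d-3p is the member right of 0.

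At 12 h against 0 h, no member was called without the block, where 5 of 414 miRNAs (1.21%) were. By edgeR, 53 of the 414 miRNAs and 2 of the members reached an unadjusted p under 0.05. Neither DESeq2 nor limma-voom called any member (0 each). With the replicate block, 90 of 414 (21.7%) were called and 4 members. let-7a-2-3p fell by 2.75 on the log2 scale (SE 0.70, edgeR adjusted p = 0.00605). let-7f-1-3p fell by 1.13 (SE 0.38, edgeR adjusted p = 0.0343), let-7b-3p fell by 0.60 (SE 0.19, edgeR adjusted p = 0.0267), and let-7d-3p rose by 0.53 (SE 0.17, edgeR adjusted p = 0.0315).

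For several members the difference lay in the first hours. let-7e-3p had 87.5, 87.8 and 62.0 CPM at 0 h in experiments 1, 2 and 3, then 66.4, 69.7 and 52.4 CPM at 2 h and 46.2, 37.0 and 42.6 CPM at 4 h. Every 4 h library was below every 0 h library. The mean stayed between 43.8 and 49.6 CPM from 6 to 12 h, with SDs of 6.24 to 11.8 CPM (n = 3). let-7f-1-3p had 19.8, 12.9 and 12.6 CPM at 0 h, 13.6, 6.97 and 5.94 CPM at 2 h, and 8.95, 2.55 and 6.23 CPM at 4 h, again without overlap between 4 h and 0 h. Its means at 6, 8, 10 and 12 h were 6.49, 5.92, 6.15 and 6.23 CPM. let-7b-3p had 75.1, 55.3 and 81.9 CPM at 0 h, 53.1, 36.9 and 79.1 CPM at 2 h, and 42.7, 34.4 and 56.8 CPM at 4 h. Here the highest 4 h library exceeded the lowest 0 h library, while within each experiment 4 h was below 0 h. Outside the members, miR-125a-3p and miR-125b-1-3p were also highest at 0 h in 3 of 3 experiments. let-7i-3p was so in 1, and miR-98-3p and miR-99b-3p in 0. How many of all miRNAs tested were highest at 0 h, or did not overlap between 4 h and 0 h, was not counted.

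The contrast of 4 h with 0 h was added after these values had been seen. Without the block, 0 of 414 miRNAs (0.00%) were called by edgeR, 20 had an unadjusted p under 0.05, and among these were 2 members. DESeq2 called 7 miRNAs, among them let-7e-3p (adjusted p = 0.0367), and limma-voom called 0. With the replicate block, 27 of 414 (6.52%) were called and 2 members. let-7e-3p fell by 0.80 on the log2 scale (SE 0.18, edgeR adjusted p = 0.00559), and let-7f-1-3p fell by 1.22 (SE 0.35, edgeR adjusted p = 0.0337). The blocked estimates for let-7a-1-3p and let-7b-3p were −0.80 and −0.59, with edgeR adjusted p = 0.0706 and 0.0569. Over all 8 members the median difference without the block was −0.71, against −0.0028 over all miRNAs tested. Among 120 other passenger arms, each the arm of its hairpin with fewer counts in total RNA, it was −0.18.

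let-7a-1-3p was lower in CPM than at 0 h in 3 of 3 experiments both at 4 h and at 12 h, by less at 12 h. It had 38.4, 22.2 and 26.9 CPM at 0 h, 25.6, 5.10 and 16.6 CPM at 4 h, and 26.8, 20.3 and 22.5 CPM at 12 h in experiments 1, 2 and 3. The 12 h libraries lay within or just under the range at 0 h. By edgeR, which scales libraries otherwise than CPM, let-7a-1-3p differed little at 12 h against 0 h. The log2 difference without the block was −0.079 (SE 0.46, edgeR adjusted p = 0.964). The slope of let-7a-1-3p was −0.0084 per hour (edgeR adjusted p = 0.875) and reversed to 0.031 without the 0 h libraries. let-7c-1-3p averaged 6.42 ± 2.94 CPM at 0 h, 4.95 ± 3.23 CPM at 4 h and 3.01 ± 0.449 CPM at 12 h (SD, n = 3). Its slope of −0.045 per hour was not called (SE 0.036, edgeR adjusted p = 0.526). let-7f-2-3p had 10.6, 5.63 and 4.99 CPM at 0 h, 4.48, 0 and 3.46 CPM at 4 h, and 5.79, 0 and 5.13 CPM at 12 h. Its slope of −0.021 per hour had an SE of 0.051, and reversed to 0.060 without the 0 h libraries.

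let-7d-3p took the other direction. It had 1938, 3061 and 1687 CPM at 0 h in experiments 1, 2 and 3, 2296, 4097 and 2222 CPM at 2 h, 1991, 3319 and 2399 CPM at 4 h, and 2365, 3266 and 2374 CPM at 12 h. At 6, 8 and 10 h it had 2172, 2604 and 3231 CPM in experiment 1, 2995, 2647 and 2532 CPM in experiment 2, and 2592, 2714 and 2509 CPM in experiment 3. In experiments 1 and 3 every later library was above 0 h, while in experiment 2 the 2, 4 and 12 h libraries were above 0 h and the 6, 8 and 10 h libraries below it. Across experiments the groups overlapped. The slope was 0.030 per hour (SE 0.019, edgeR adjusted p = 0.368), and 0.036 with the replicate block (SE 0.012, edgeR adjusted p = 0.0222). The blocked call was lost when libraries were scaled to their totals alone (slope 0.016, adjusted p = 0.284) and without the 0 h libraries (slope 0.017, adjusted p = 0.450).

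The hairpins let-7a-1, let-7f-1 and let-7d lie in one annotated transcript region, but let-7a-1-3p reads can also stem from let-7c-2 on chromosome 15. The blocked slopes of let-7a-1-3p, let-7f-1-3p and let-7d-3p were −0.014, −0.087 and 0.036 per hour. The differences between these slopes were not tested. Across the 21 labelled libraries the log2 levels of the other 7 members correlated positively with one another, with Pearson r of 0.472 to 0.836 over 21 libraries. let-7d-3p correlated negatively with all 7, between −0.142 and −0.655. These libraries share experiments and time points, so the values describe these samples only.

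Against its own guide, each passenger strand was rare except let-7d-3p. let-7d-3p made 28.5 ± 2.98% of the let-7d reads of both arms at 12 h and 21.5 ± 3.90% at 0 h (SD, n = 3). It made 34.7% in total RNA of pulsed cells (95% exact interval 34.1 to 35.4), 27.2% in total RNA of unlabelled cells (26.7 to 27.8) and 18.5% in the negative extraction (17.4 to 19.7). let-7b-3p was 0.401 to 2.17% of the let-7b reads in the labelled libraries, and let-7e-3p 0.203 to 1.01% of the let-7e reads. Each of the other 5 stayed under 0.2% in the labelled libraries, and the highest was 0.172%, for let-7a-1-3p. In total RNA of pulsed cells let-7b-3p made 4.45%, let-7e-3p 3.42%, let-7a-1-3p 1.025% and let-7f-2-3p 0.230%. The strands let-7a-2-3p, let-7c-1-3p and let-7f-1-3p made 0.196, 0.0575 and 0.0488% there. The guide let-7a-5p is shared by let-7a-1 and let-7a-2, and let-7f-5p by let-7f-1 and let-7f-2, so these shares are taken against the summed guide. let-7c-5p can likewise come from let-7c-1 and let-7c-2.

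The log2 ratio of passenger over guide arm was tested with limma for 128 hairpins whose arms both passed the filter. To each arm 1 CPM was added. The passenger was the arm with fewer counts summed over both total RNA libraries. For the let-7 members it is the 3p arm, and for other hairpins it can be the 5p arm. The ratio had a called slope in 17 of 128 hairpins (13.3%) and in 1 member, let-7a-2-3p, whose ratio fell by 0.15 per hour (SE 0.047, limma adjusted p = 0.0409). With the replicate block, 38 of 128 (29.7%) were called and 2 members, let-7a-2-3p (adjusted p = 0.00160) and let-7e-3p, whose ratio fell by 0.053 per hour (SE 0.019, limma adjusted p = 0.0339). The let-7a-2 call was lost with 5 CPM added in place of 1 CPM (slope −0.051, adjusted p = 0.282) and without experiment 1 (adjusted p = 0.119) or experiment 3 (0.312). For let-7d the ratio had a slope of 0.035 per hour (SE 0.020, limma adjusted p = 0.253).

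**Figure D3:**
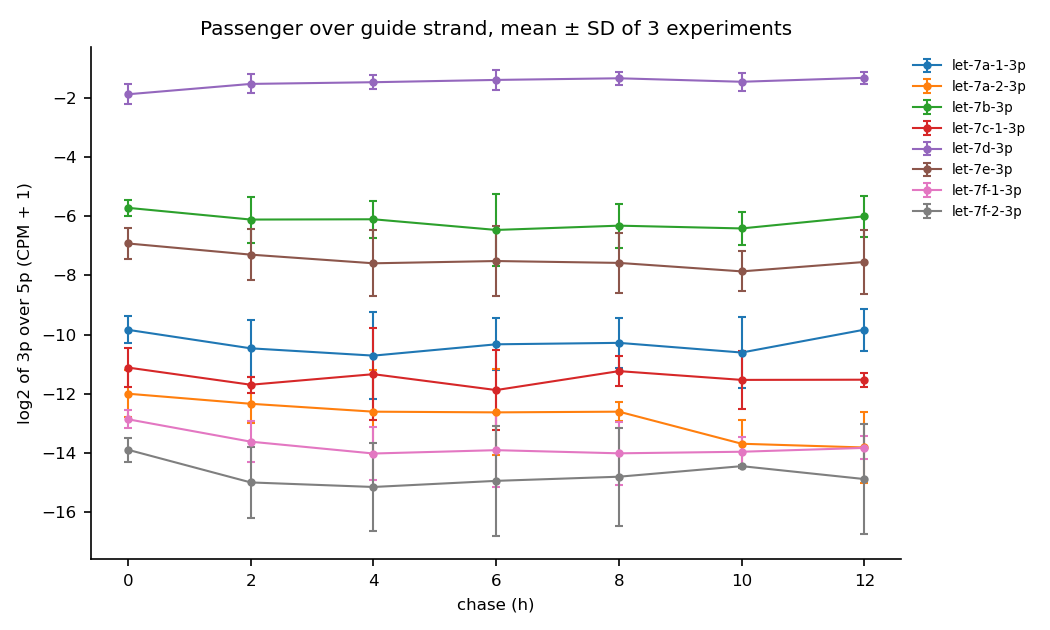
Log2 ratio of passenger (3p) over guide (5p) strand in labelled RNA, with 1 CPM added to each arm, against chase time (h), as mean ± SD of 3 experiments. let-7d lies between −1 and −2, far above the other hairpins, and the let-7a-2 line drops at 10 and 12 h.

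The members differed in the form in which they were read. In the pooled labelled libraries, let-7d-3p was canonical in 170298 of 193894 counts (87.8%), let-7c-1-3p in 314 of 382 (82.2%), let-7a-1-3p in 1318 of 1838 (71.7%) and let-7e-3p in 2668 of 4454 (59.9%). let-7b-3p was trimmed in 4078 of 4140 counts (98.5%) and let-7f-1-3p in 712 of 744 (95.7%). let-7a-2-3p carried a templated 3′ extension, which follows the hairpin, in 242 of 327 counts (74.0%). let-7f-2-3p carried a non-templated 3′ U in 373 of 385 counts (96.9%, 95% exact interval 94.6 to 98.4). The same leading form was seen for each of the 8 members in both total RNA libraries, with let-7f-2-3p at 317 of 335 U-extended counts in total RNA of pulsed cells and 150 of 152 in total RNA of unlabelled cells. How the authors assigned the classes is not given in the sources used here.

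Whether an added U can be recognised depends on the hairpin base that follows. In 3 members the next hairpin base is C, so that a U added to the full-length strand differs from the hairpin. The next lines give their mature sequences with the following 3 hairpin bases in capitals.
let-7f-2-3p: cuauacagucuacugucuuucCCA
let-7e-3p: cuauacggccuccuagcuuuccCCA
let-7a-2-3p: cuguacagccuccuagcuuucCUU
The full-length let-7f-2-3p with a single U added, in capitals, would read cuauacagucuacugucuuucU; the table does not give read sequences, so the number of added bases and the exact end of that form are not known. In the other 5 members the next hairpin base is itself U, as in let-7a-1-3p (cuauacaaucuacugucuuuccUAA) and let-7d-3p (cuauacgaccugcugccuuucuUAG), so a single U added to the full-length strand matches the hairpin and can be counted as a templated extension. Templated 3′ extensions made 12.2% of let-7a-1-3p counts (224 of 1838), 12.6% of let-7c-1-3p counts (48 of 382) and 0.531% of let-7d-3p counts (1029 of 193894). In these counts an added U and the hairpin's own U cannot be told apart. The limit concerns full-length strands, whereas let-7b-3p and let-7f-1-3p were mostly trimmed. Both sequences end in a run of C, so a U added to an end trimmed within that run would differ from the hairpin. How such a form was classed is not known.

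Among the 3 members whose next hairpin base is C, the U-extended share was 96.9% for let-7f-2-3p, 32.7% for let-7e-3p (1457 of 4454, 95% exact interval 31.3 to 34.1) and 0.306% for let-7a-2-3p (1 of 327, interval 0.00774 to 1.69). Most let-7a-2-3p counts carried a templated extension, and in its hairpin the base after the next C is U. A U added after that C matches the hairpin and can be counted as templated. The let-7a-2-3p share therefore cannot be set against those of let-7f-2-3p and let-7e-3p. Of the 5 members whose next hairpin base is U, let-7d-3p had 252 of 193894 counts (0.130%) listed with a non-templated U and let-7b-3p had 1 of 4140, and the remaining 3 had 0. let-7e and let-7a-2 belong to the precursor group set apart in human cells, and let-7f-2 to the larger group that is uridylated there. let-7e-3p had the added U in 23.8% of 558 counts (interval 20.4 to 27.6) in total RNA of pulsed cells and 26.8% of 340 counts (interval 22.1 to 31.8) in total RNA of unlabelled cells. Its share in labelled RNA was 30.8 to 37.0% at 0 h and 32.5 to 34.5% at 4 h. At 12 h it was 34.6, 68.0 and 41.0% in experiments 1, 2 and 3, the middle one from the shallowest library. The U-extended form of let-7e-3p had a slope of −0.013 per hour (SE 0.022, edgeR adjusted p = 0.795), and the canonical form −0.061 (SE 0.021, edgeR adjusted p = 0.0590; 0.00286 with the replicate block). The difference between these slopes was not tested.

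**Figure D4:**
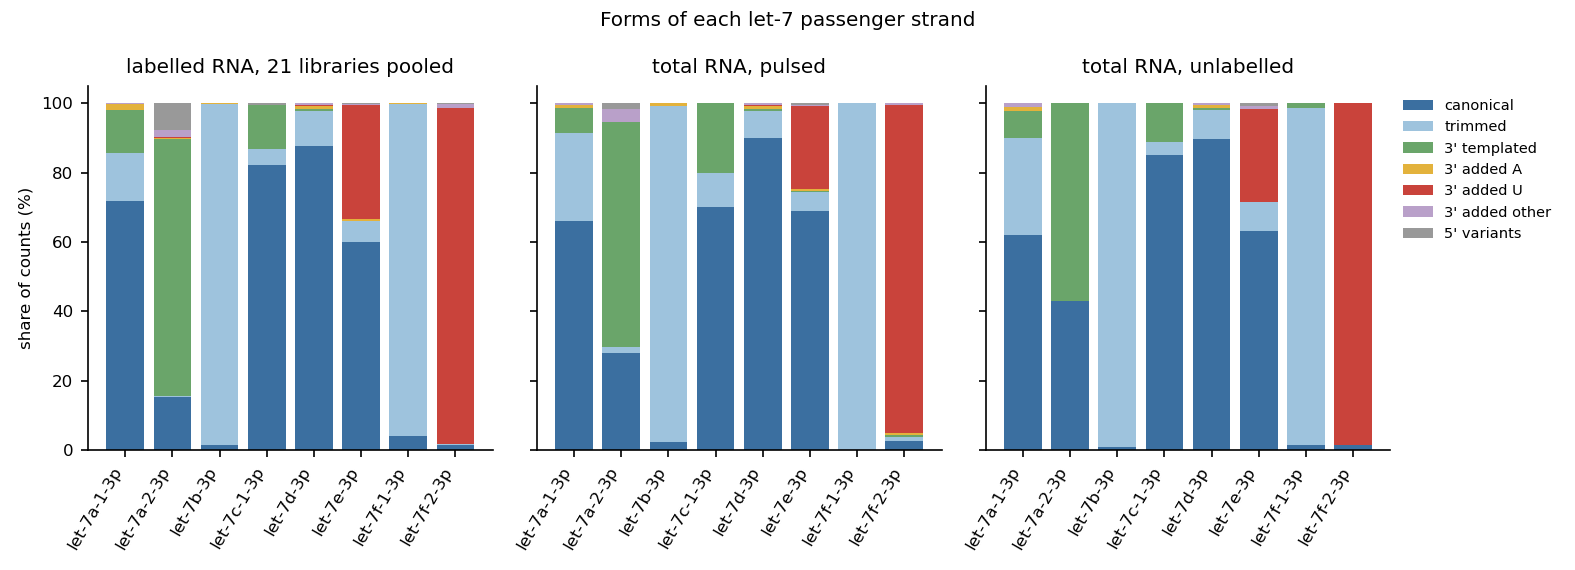
Share of counts (%, vertical axes from 0 to 100) in each form of the 8 let-7 passenger strands, in 21 pooled labelled libraries (left), total RNA of pulsed cells (middle) and total RNA of unlabelled cells (right). The forms with an added U lead in let-7f-2-3p and take 32.7% of let-7e-3p in labelled RNA, while let-7b-3p and let-7f-1-3p are almost entirely trimmed in all 3 panels.

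Fitted form by form over 1257 isoform entries, 131 entries (10.4%) had a called slope, among them 3 of the 17 member entries that passed the filter. The templated extension of let-7a-2-3p fell by 0.20 per hour (SE 0.048, edgeR adjusted p = 0.00806) and the trimmed let-7f-1-3p by 0.094 (SE 0.030, edgeR adjusted p = 0.0452). The form of let-7d-3p with an added A rose by 0.059 per hour (SE 0.018, edgeR adjusted p = 0.0390). That form was 1.42, 1.32 and 0.965% of let-7d-3p counts at 12 h and 0.814, 0.714 and 1.13% at 0 h in experiments 1, 2 and 3, so that it was higher at 12 h in experiments 1 and 2 and lower in experiment 3. With the replicate block, 353 of 1257 entries (28.1%) and 6 member entries were called. The added calls were the trimmed let-7b-3p (−0.065 per hour, edgeR adjusted p = 0.000541), the canonical let-7e-3p, and the canonical let-7d-3p (0.031 per hour, edgeR adjusted p = 0.0478).

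Total RNA of pulsed cells was set against total RNA of unlabelled cells with 1 library each, so that no spread between replicates stands behind these ratios. The median ratio was 1.55 over the 8 members, 1.34 over 120 other passenger arms and 1.27 over all 410 miRNAs. let-7a-2-3p had 57 counts (12.6 CPM) in pulsed and 14 counts (2.18 CPM) in unlabelled cells, a ratio of 5.77 (95% exact interval 3.17 to 11.2). let-7f-2-3p had 74.0 CPM in pulsed and 23.7 CPM in unlabelled cells, a ratio of 3.12 (2.57 to 3.81), and let-7e-3p 123.3 CPM in pulsed and 53.0 CPM in unlabelled cells, a ratio of 2.33 (2.03 to 2.67). These 3 of 8 members were over 2-fold higher, as were 52 of 410 miRNAs (12.7%). let-7b-3p, let-7a-1-3p, let-7f-1-3p and let-7d-3p had ratios of 1.57, 1.52, 1.38 and 1.17, and let-7c-1-3p, at 10 counts in pulsed and 27 in unlabelled cells, had 0.525 (0.227 to 1.12). The guides let-7a-5p and let-7f-5p had ratios of 0.855 and 0.739.

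Labelled RNA at 0 h was set against total RNA of pulsed cells, where the median ratio was 0.802 over the 8 members, 1.10 over 120 other passenger arms and 1.01 over all 410 miRNAs. let-7f-2-3p averaged 7.07 ± 3.07 CPM in labelled RNA (SD, n = 3), against 74.0 CPM in total RNA, a ratio of 0.0956 that lay between 0.0674 and 0.143 over the experiments. The ratio was 0.440 for let-7a-1-3p, 0.488 for let-7a-2-3p, 0.642 for let-7e-3p and 0.962 for let-7f-1-3p. The 3 members let-7f-2-3p, let-7a-1-3p and let-7a-2-3p were over 2-fold lower, as were 97 of 410 miRNAs (23.7%). let-7b-3p, let-7d-3p and let-7c-1-3p had ratios of 1.25, 1.57 and 2.91, the last one against 10 counts. The 6 guides of the member hairpins were all higher in labelled RNA, with ratios of 3.01 to 4.22. All 6 were also higher in the negative extraction than in total RNA of pulsed cells. There let-7f-5p had 148000 CPM against 32120 CPM, and let-7b-5p 4910 CPM against 1216 CPM. Each guide's level in the negative extraction exceeded 20 or 21 of the 21 labelled libraries. Capture and the unexplained header code change together in this comparison, and their parts cannot be told apart.

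The negative extraction held passenger strands too. let-7d-3p had 820 counts there (2888 CPM), a level above 15 of the 21 labelled libraries. let-7a-1-3p had 16 counts, or 56.4 CPM (95% exact interval 32.2 to 91.5), above all 21, and let-7e-3p had 23 counts, or 81.0 CPM (51.4 to 122), above 19. These ranks are uncertain, because both intervals also cover labelled libraries below the observed level. Examples are 38.4 CPM for let-7a-1-3p (0 h, experiment 1) and 69.7 CPM for let-7e-3p (2 h, experiment 2). let-7b-3p had 7 counts (24.7 CPM), let-7f-2-3p had 3, let-7f-1-3p had 2 and let-7c-1-3p had 1, which are too few to rank. let-7a-2-3p had 0 counts, with an exact 95% upper limit of 12.99 CPM. The levels are relative to each library's own total, so they do not give the amount of unlabelled RNA carried through the capture.

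**Figure D5:**
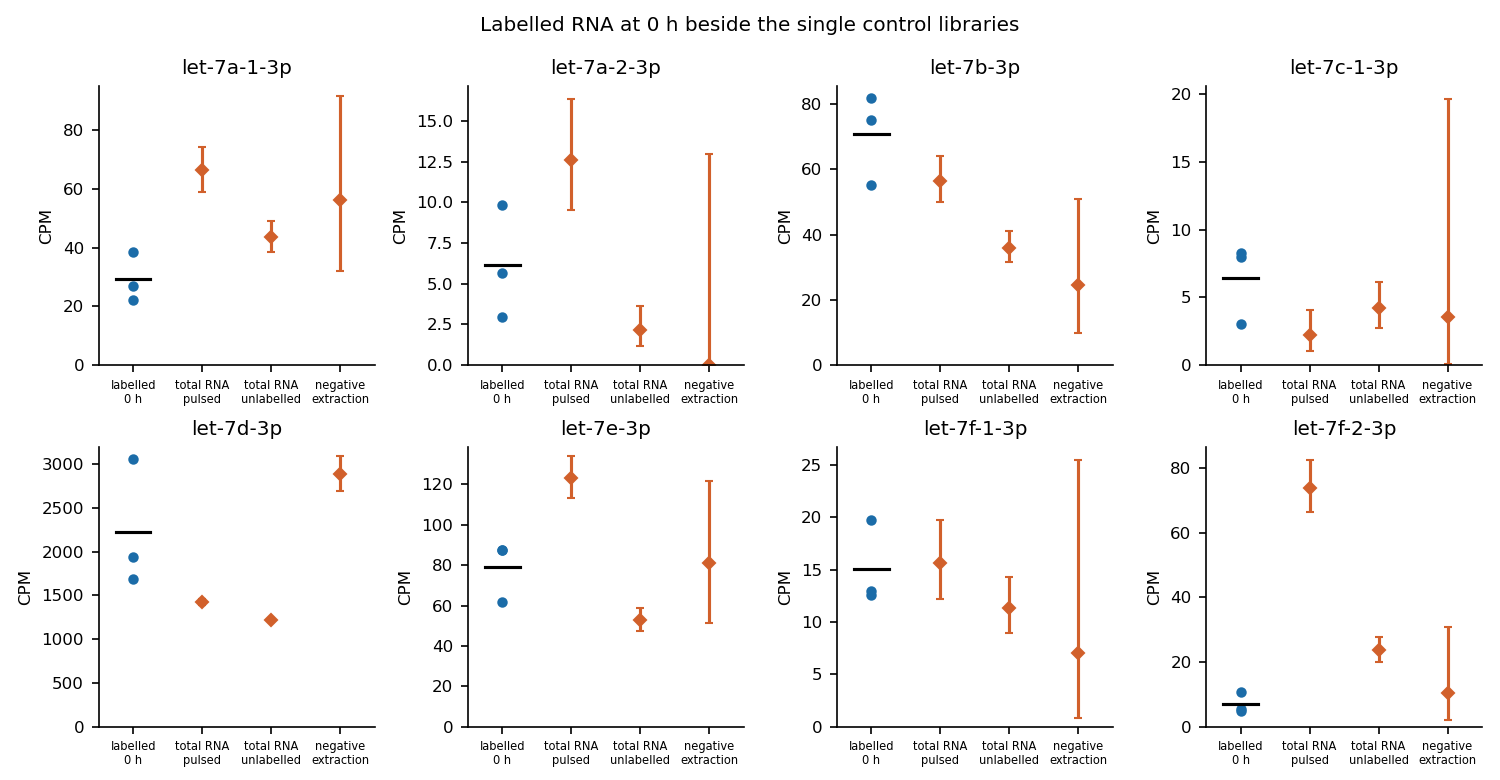
Level of each let-7 passenger strand (CPM, vertical axes starting at 0) in labelled RNA at 0 h (circles for 3 experiments, bar for their mean), then in the single libraries of total RNA of pulsed cells, total RNA of unlabelled cells and the negative extraction (diamonds with 95% exact counting intervals). let-7f-2-3p had a mean of 7.07 CPM in labelled RNA against 74.0 CPM in total RNA of pulsed cells, and let-7d-3p and let-7a-1-3p are high in the negative extraction.

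Other strands of the family and of the same clusters gave the following slopes. Of 4 other arms of the family that passed the filter (let-7i-3p, miR-98-3p, let-7j and let-7k), 0 were called without the block, and with it miR-98-3p, the passenger from the hairpin beside let-7f-2, rose by 0.059 per hour (edgeR adjusted p = 0.0131). let-7i-3p had a slope of 0.025 per hour (edgeR adjusted p = 0.693). None of 9 let-7 guides was called without the block. With it let-7i-5p rose by 0.026 per hour (edgeR adjusted p = 0.00483) and let-7b-5p fell by 0.026 (edgeR adjusted p = 0.0197). Of 7 passengers listed for sharing a cluster with let-7 hairpins, 5 passed the filter, 0 were called without the block, and with it 2 rose and 2 fell. Beside miR-98-3p these were as follows: miR-125a-3p and miR-125b-1-3p fell by 0.039 and 0.050 per hour (edgeR adjusted p = 0.0280 and 0.00403), and miR-99b-3p rose by 0.018 (edgeR adjusted p = 0.0473). Of the 120 other passenger arms, 0 rose and 20 fell without the block, with a median slope of −0.015 per hour, and 8 rose and 35 fell with it.

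The miRNAs whose levels ran most like each member were ranked by Pearson r of log2(CPM + 1) over the 21 labelled libraries, as a description. let-7e-3p and let-7f-1-3p were each other's closest, at r = 0.836. let-7a-2-3p was closest to miR-466d-3p (r = 0.896), a member of a repeat family whose reads may be split among copies, and let-7b-3p to miR-466g (r = 0.900) of the same family. let-7d-3p was closest to miR-676-3p (r = 0.802), let-7a-1-3p to miR-130a-5p (r = 0.856), let-7c-1-3p to miR-331-5p (r = 0.833) and let-7f-2-3p to miR-326-3p (r = 0.826).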

How the data were processed

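The authors deposited 1 table of read counts, in whole numbers, with 7129 entries that split every miRNA into isoform classes. Per the submitters' processing notes, bases were called with CASAVA 1.8.0. For the alignment, the annotation used and the class definitions, details were not given in the sources used here. One repeated entry was removed, and classes that restate others were used once (equal in 25728 of 25728 cells). Counts were summed per miRNA, and CPM are counts scaled to a library total of 1e6 miRNA counts. The 21 labelled libraries entered edgeR 4.0.16 (quasi-likelihood test, TMM scaling, R 4.3.3) after its filter on low counts, which kept 414 miRNAs and 1257 isoform entries. Arm ratios of 128 hairpins were tested with limma 3.58.1. DESeq2 1.42.0, limma-voom, other scalings and filters, thinning and left-out libraries were alternatives. Steps were tested on simulated data. Experiment numbers paired the libraries: after removal of each time point's mean, 63 pairs of libraries of one experiment correlated at 0.311 to 0.738 and 126 other pairs at −0.647 to 0.227, and 21 of 21 libraries fitted best with their own experiment, so the experiment is given as a replicate block beside results it changes. Intervals are exact (Clopper-Pearson, or conditional binomial for ratios) at 95% and cover counting error only. The 8 members and the lists were chosen with earlier results of these data known. The text names the members, the most abundant or called strands of the fixed lists, and the closest miRNA by correlation.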

Additional observations from a re-analysis of the deposited data

How the results depend on the processing

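The experiment numbers paired the libraries, and the replicate block gave 4 called members for the slope (1 without it), 4 for 12 h against 0 h (0 without), 2 for 4 h against 0 h (0 without), 2 for the arm ratio (1 without) and 6 isoform entries (3 without); it changed no other call of a member. For the slope without the block, 4 members were called with library totals alone, 2 with DESeq2, and 0 with libraries thinned to 1133048 counts (5 members tested), with the canonical sequence only (4 tested), without 0 h and without 12 h. With the block, 4 were called under library totals and under upper quartile scaling (combinations chosen after seeing the data). At 4 h against 0 h, DESeq2 called 1. Leaving out 1 library or 1 experiment at a time gave 0 to 3 members for the slope, 0 to 2 for the arm ratio and 0 to 5 isoform entries. The arm ratio call was 0 with 5 CPM added, without 0 h, without 12 h, with the canonical sequence only and with no filter, and 1 isoform entry was called with no filter. Library totals alone moved the median of all miRNAs at 12 h against 0 h to −0.29, against −0.050 with TMM, and gave 10 slopes up among 57 calls, against 21 among 51; upper quartile gave 39 among 63. Reversals were all among members with no call. The let-7a-1-3p slope reversed to 0.00056 with upper quartile scaling, 0.031 without 0 h, 0.029 with the block and without 0 h, and ranged from −0.021 to 0.0085 with libraries left out. The let-7f-2-3p slope reversed to 0.060 without 0 h, 0.065 with the block and without 0 h, and ranged from −0.048 to 0.016 with libraries left out. The 12 h difference of let-7a-1-3p reversed to 0.043 with upper quartile scaling and ranged from −0.21 to 0.12 with libraries left out, and the 4 h difference of let-7c-1-3p ranged from −0.72 to 0.38. Arm ratio slopes reversed for let-7c-1-3p (0.0059 with 5 CPM added, 0.013 without 0 h), let-7f-2-3p (0.040 without 0 h) and let-7a-1-3p (−0.042 without 12 h, −0.0084 with the canonical sequence only, −0.0098 without experiment 1). The causes were not tested. The depth of the negative extraction and of the rarest members limits what can be ranked.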
